A study of Rattus norvegicus with 6 samples.

Results

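The genes described here encode the 3 beta subunits of the sodium pump, Atp1b1, Atp1b2 and Atp1b3, and phospholemman, Fxyd1, a small membrane protein that binds the pump. They were taken as all rows of the deposited mRNA table whose RefSeq transcript belongs to one of these genes, which gave 1 row for each of the 4 genes among 20734 rows. No sodium-proton exchanger is among these rows, and exchangers are given further on with the other ion transport genes. RNA was measured on 6 one-colour arrays from cultures of ventricular cardiomyocytes of newborn Sprague-Dawley rats aged 1 to 3 days. The treated group consisted of 3 cultures exposed to 10 µM isoproterenol, a beta-adrenergic agonist used to bring about hypertrophy, for 24 h. The control group consisted of 3 cultures kept untreated for the same time. All cultures had been freed of most fibroblasts by attachment and had been moved to medium without serum. The labels also mention passages, and the series text speaks of transfection, which leaves the handling of the cells partly unclear. The labels do not say whether the cultures of a group came from separate litters or isolations, so the p-values describe the spread between these arrays, which may be technical.

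The sodium pump exchanges intracellular sodium for extracellular potassium at the cost of ATP and so sets the sodium gradient that the other exchangers of the heart cell use. Its catalytic alpha subunit reaches the plasma membrane only together with a beta subunit, a glycoprotein that crosses the membrane once. Phospholemman lowers the pump's affinity for sodium, and its phosphorylation by protein kinase A, which beta-adrenergic agonists activate, lifts that inhibition. The arrays measure RNA only, and neither subunit protein nor phosphorylation was measured here. In RNA of a whole culture, fewer cells of a type and less RNA per cell cannot be told apart.

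A level is given as log2 of the processed signal minus the 75th percentile of the same array, so that 0 is the level of the 75th percentile, and a change is the isoproterenol mean minus the control mean on that scale. A gene is said to have risen or fallen when limma's moderated test gave an adjusted p under 0.05 over all 19924 mRNA genes tested. Levels of different genes come from different probes and are not compared. Isoproterenol replicates 2 and 3 were hybridised on a second slide and all other arrays on the first. On slide 2 between 61.3% and 70.9% of the mRNA probes were well above background, against 97.7% to 99.8% on slide 1. Slide and treatment therefore partly coincide, and changes are also read within slide 1, where isoproterenol replicate 1 stands against the 3 controls, and with slide as a block. Slide 2 holds no control, so the block fit takes its change from that same contrast, and both fits give the same change. They are not separate checks. The treated side is 1 array in both, so neither p-value holds the spread between treated cultures on slide 1. All 4 genes were well above background on all 6 arrays, and no array had a saturated spot.

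Of the 4 genes, 1 fell, 1 rose and 2 did not pass the threshold. Of all mRNA genes tested 16.2% passed, 10.2% higher and 5.94% lower with isoproterenol. Atp1b2 was 5.17-fold lower with isoproterenol, Atp1b3 was 2.04-fold higher, and the intervals of Atp1b1 and Fxyd1 included 0. With slide as a block 1 of the 4 genes passed, Atp1b2, where 7.31% of all genes did, 3.67% higher and 3.64% lower. Within slide 1 0 of the 4 passed by limma's adjusted p, where 5.23% of all genes did, 2.50% higher and 2.73% lower, and 2 of the 4, Atp1b2 and Atp1b3, had an unadjusted p under 0.05. The groups did not overlap for Atp1b2 and Atp1b3, 2 of the 4 genes, as was so for 41.4% of all genes, 25.6% higher and 15.8% lower with isoproterenol.

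Atp1b2 encodes the beta 2 subunit, which was first described in glia as an adhesion molecule and is also found in heart and skeletal muscle. Its level was −0.41, −0.31 and −0.07 in isoproterenol replicates 1 to 3, against 1.46, 2.60 and 2.25 in control replicates 1 to 3. The groups were far apart, with the lowest control, replicate 1, still well above the highest treated array, and the treated array of slide 1 lay beside those of slide 2. The mean level was −0.27 ± 0.17 with isoproterenol and 2.10 ± 0.58 in controls (SD, n = 3 each). Atp1b2 fell by 2.37 on the log2 scale (SE 0.31, 95% confidence interval −3.09 to −1.65, limma adjusted p = 0.0072), and 0.642% of the genes tested had a lower change. The fall was as large on slide 1 alone as over both slides. Within slide 1 the change was −2.51 ± 0.47 (SE), with adjusted p = 0.0564, and with slide as a block it was −2.51 ± 0.44 with adjusted p = 0.0361. In the authors' deposited table, whose values are on another log2 scale, Atp1b2 had 8.29, 8.42 and 8.63 with isoproterenol and 10.25, 11.40 and 11.06 in controls.

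Because Atp1b2 is also a gene of glia, the markers of Schwann cells and glia were read beside it. Of 4 such markers tested 0 rose and 1 fell, and their summed level was between 1.89 and 2.45 with isoproterenol and between 2.45 and 2.73 in controls, in multiples of the array's 75th percentile. S100b, a calcium-binding protein of glia, fell by 1.31 ± 0.16 (SE, limma adjusted p = 0.00585). It also passed within slide 1, at −1.30 (adjusted p = 0.0344), and with slide as a block (adjusted p = 0.0202), while its change was 0.00 under normexp background correction. S100b, Sox10 and Gfap were not well above background on either array of slide 2. Mbp, a myelin protein, was well above background on all 6 arrays, at a change of −0.19 ± 0.18 (limma adjusted p = 0.48, −0.00 within slide 1). Its 6 probes gave changes from −0.48 to 0.04. The summed level is mostly Mbp, whose mean log2 level was 1.00 with isoproterenol and 1.18 in controls. No other glial marker had a group mean above −2.63, so the sum says little of them. The part of glia in the fall of Atp1b2 was not tested.

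Atp1b3 encodes the beta 3 subunit, which is expressed in many tissues. Its level was 5.23, 5.88 and 5.92 in isoproterenol replicates 1 to 3, against 4.66, 4.64 and 4.66 in control replicates 1 to 3. Every treated array was above every control, and the controls lay almost on one value, but both slide 2 arrays were higher than the treated array of slide 1. The mean was 5.68 ± 0.39 with isoproterenol and 4.65 ± 0.01 in controls (SD, n = 3 each). Atp1b3 rose by 1.03 ± 0.23 (SE, 95% confidence interval 0.49 to 1.57, limma adjusted p = 0.0275), a fold of 2.04. Within slide 1 the change was 0.58 ± 0.14 (SE) with adjusted p = 0.081, and with slide as a block it was 0.58 ± 0.14 with adjusted p = 0.0681. The call of a rise was thus lost when slide was taken into account, while the direction was kept. In the authors' deposited table Atp1b3 had 14.01, 14.23 and 14.32 with isoproterenol and 13.56, 13.54 and 13.58 in controls, a difference of 0.63 that passed the threshold in limma (adjusted p = 0.0412). Without isoproterenol replicate 1, which leaves the groups on different slides, the change was 1.25 and passed. Without control replicate 1, 2 or 3 or isoproterenol replicate 2 or 3 it was between 0.91 and 1.03 and did not pass (limma adjusted p from 0.0864 to 0.116).

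Atp1b1 encodes the beta 1 subunit, the main beta subunit of the ventricle. Its level was 2.42, 2.77 and 2.75 in isoproterenol replicates 1 to 3, against 2.46, 2.47 and 2.43 in control replicates 1 to 3. The treated array of slide 1 lay just below all controls and both arrays of slide 2 lay above them, so the groups overlapped. The mean was 2.64 ± 0.20 with isoproterenol and 2.45 ± 0.02 in controls (SD, n = 3 each). The change of 0.19 ± 0.17 (SE) did not pass (limma adjusted p = 0.441), and its 95% confidence interval from −0.22 to 0.60 allows from 1.16-fold lower to 1.52-fold higher. The sign depended on scaling and slide: the change was −0.04 ± 0.14 within slide 1 and −0.02 in the authors' deposited table.

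Fxyd1 encodes phospholemman, the inhibitor of the pump described above. Its level was 3.43, 4.07 and 4.07 in isoproterenol replicates 1 to 3, against 3.47, 3.25 and 3.35 in control replicates 1 to 3. The treated array of slide 1 lay within the controls and both slide 2 arrays lay above them. The mean was 3.85 ± 0.37 with isoproterenol and 3.36 ± 0.11 in controls (SD, n = 3 each). The change of 0.50 ± 0.23 (SE, 95% confidence interval −0.04 to 1.03) did not pass (limma adjusted p = 0.162), and it was 0.07 ± 0.16 both within slide 1 (adjusted p = 0.788) and with slide as a block (adjusted p = 0.81). Without isoproterenol replicate 1 the change was 0.71 and passed (limma adjusted p = 0.00652), but slide and treatment cannot be told apart in that comparison.

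**Figure D1:**
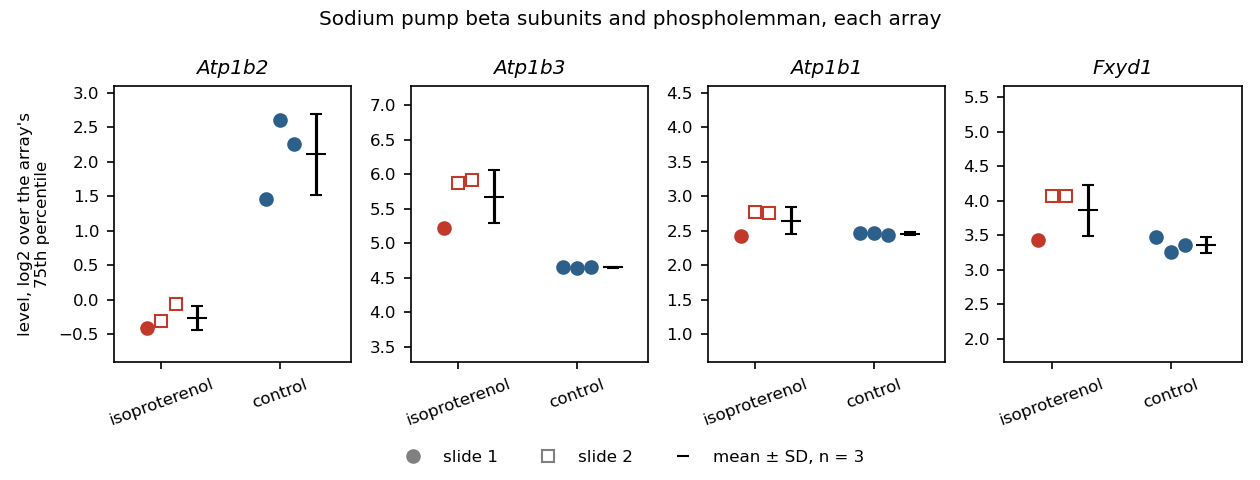
Level of each gene on each array, as log2 over the array's 75th percentile, with isoproterenol left of control in every panel and all 4 vertical axes of the same length. Filled circles are arrays of slide 1, open squares arrays of slide 2, and bars the mean ± SD of 3 arrays; Atp1b2 lies between −0.41 and −0.07 with isoproterenol and between 1.46 and 2.60 in controls, and for Atp1b3, Atp1b1 and Fxyd1 the slide 2 arrays lie above the treated array of slide 1.

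The genes tested were split by mean level into 4 classes of 4981 genes. Atp1b1, Atp1b3 and Fxyd1 lay in the brightest class and Atp1b2 in the next. In the brightest class the mean of the slide 2 arrays exceeded isoproterenol replicate 1 by a median of 0.48, and the median change between the groups was 0.38, against 0.14 within slide 1. Over all genes these medians were 0.10, 0.07 and 0.11, so the step between slides was larger among bright genes than over all genes. For the genes described here, the slide 2 mean exceeded isoproterenol replicate 1 by 0.34 for Atp1b1, 0.67 for Atp1b3, 0.64 for Fxyd1 and 0.21 for Atp1b2. In the brightest class 17.4% of the genes were called higher and 3.85% lower, and in the class that holds Atp1b2 12.3% were called higher and 8.47% lower. The part of slide in these values was not tested apart from the fits within slide 1 and with slide as a block.

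**Figure D2:**
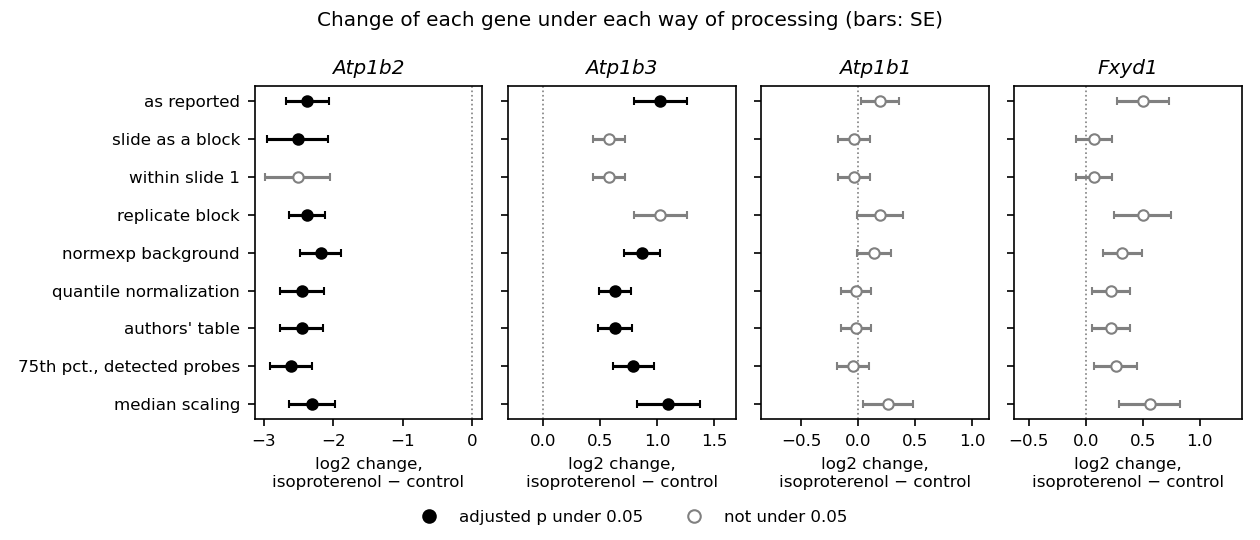
Change of each gene on the log2 scale, isoproterenol minus control, under 9 ways of processing (rows), with bars of 1 SE; filled points have an adjusted p under 0.05. Atp1b2 stays between −2.61 and −2.18 in these rows, while Atp1b3 is lowest in both slide fits, at 0.58, and the points of Atp1b1 lie on both sides of 0.

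A difference between 2 genes within one array does not depend on a factor that scales the whole array, so the 6 pairs of the 4 genes were also compared in that way. Its size carries the brightness of both probes, and only its shift between the groups is read. A step between slides that differs from gene to gene is not removed, and it ran from 0.21 for Atp1b2 to 0.67 for Atp1b3. Each shift equals the difference between the changes of its genes given above, so it restates them. Atp1b2 minus Atp1b3 was −5.64, −6.20 and −6.00 in isoproterenol replicates 1 to 3 and −3.19, −2.04 and −2.41 in control replicates 1 to 3. The shift was −3.40 on the log2 scale, a 10.5-fold lower ratio of Atp1b2 to Atp1b3, with no overlap, and −3.09 within slide 1. This was the largest shift of the 6 pairs because it sets the gene that fell against the gene that rose. Atp1b1 minus Atp1b2 was 2.82, 3.08 and 2.82 with isoproterenol and 0.99, −0.13 and 0.17 in controls, a shift of 2.56. This shift is mostly the fall of Atp1b2, as Atp1b1 itself was at 0.19 and did not pass. Atp1b1 minus Atp1b3 was −2.82, −3.12 and −3.18 with isoproterenol and −2.20, −2.17 and −2.23 in controls, a shift of −0.84 that was −0.62 within slide 1.

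Atp1b3 minus Fxyd1 was 1.81, 1.82 and 1.86 with isoproterenol and 1.19, 1.39 and 1.31 in controls. This shift of 0.53 was nearly the same within slide 1, at 0.51, and the 3 treated arrays of both slides lay within a narrow band. Atp1b2 minus Fxyd1 shifted by −2.87 without overlap, whereas Atp1b1 minus Fxyd1 shifted by −0.30 with overlapping groups. Of the 6 pairs 5 did not overlap, with an exact two-sided permutation p of 0.1 each and 0.12 after Benjamini-Hochberg adjustment over the pairs, and for Atp1b1 minus Fxyd1 the exact p was 0.2. With 3 arrays per group 0.1 is the smallest p this test can give, so it cannot pass 0.05. The pairs share genes and are not independent of each other.

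**Figure D3:**
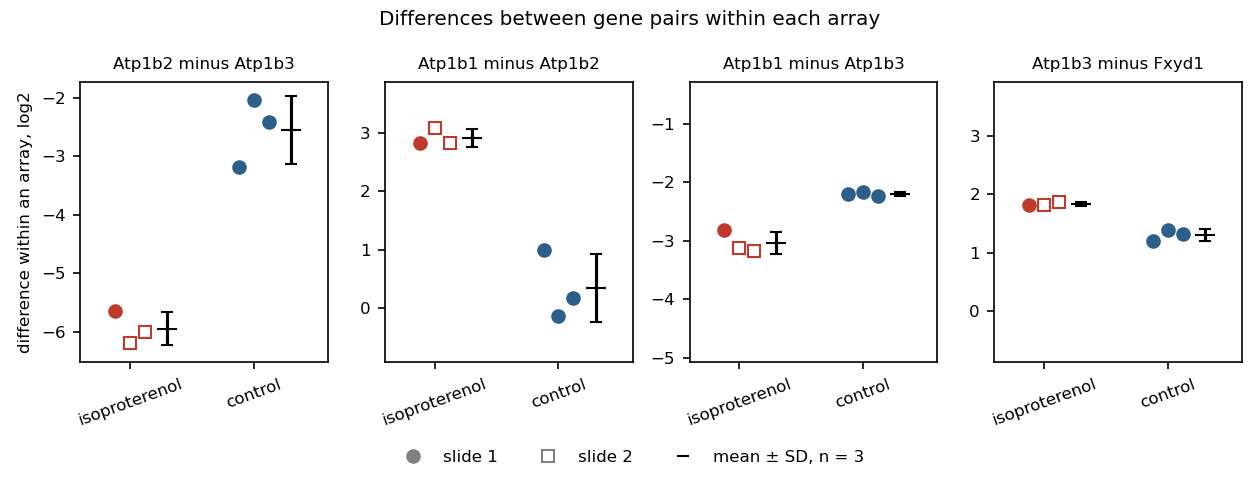
Difference in log2 level between 2 genes on the same array for 4 of the 6 pairs, isoproterenol left of control, with all vertical axes of the same length. Circles are slide 1, squares slide 2, and bars mean ± SD of 3 arrays; in each pair shown the groups do not overlap, and for Atp1b3 minus Fxyd1 the treated arrays of both slides lie between 1.81 and 1.86.

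The sequence before the start of each gene is shown for the 2 genes that passed the threshold, as context for genes that moved in opposite directions. RefSeq promoters of assembly GRCr8 matched Atp1b2, Atp1b3 and Fxyd1. The 250 bases before the annotated start are printed 5′ to 3′ on the gene's strand, and capitals mark matches on either strand. The motifs searched were the GC box, GGGCGG, then the CCAAT box, then the TATA box, spelled TATAAA, and the core of the cAMP response element, TGACG. The full response element, spelled TGACGTCA, contains that core. Atp1b2 is shown at chr10:54823709-54823958 and Atp1b3 at chr8:105821152-105821401, both on the minus strand.
Atp1b2: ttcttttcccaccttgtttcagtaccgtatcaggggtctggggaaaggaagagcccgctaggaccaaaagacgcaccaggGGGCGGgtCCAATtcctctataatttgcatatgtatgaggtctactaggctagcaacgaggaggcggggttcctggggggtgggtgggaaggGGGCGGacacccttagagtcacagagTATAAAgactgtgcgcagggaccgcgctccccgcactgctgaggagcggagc
Atp1b3: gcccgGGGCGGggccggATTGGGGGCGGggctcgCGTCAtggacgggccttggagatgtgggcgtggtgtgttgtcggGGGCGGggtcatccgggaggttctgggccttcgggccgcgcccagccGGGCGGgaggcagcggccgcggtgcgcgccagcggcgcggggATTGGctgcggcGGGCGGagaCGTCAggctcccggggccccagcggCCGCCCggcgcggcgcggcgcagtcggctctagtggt
The Atp1b2 stretch holds 2 GC boxes, 1 CCAAT and 1 TATAAA, 52 to 47 bases before the start, and has 58.0% G and C. The Atp1b3 stretch holds 6 GC boxes, 2 CCAAT matches on the opposite strand and no TATAAA, with 79.6% G and C and 38 CpG against a median of 52.0% and 6 CpG over 27457 promoters. TGACG occurs 2 times in Atp1b3, on the opposite strand, and in neither Atp1b2 nor Fxyd1, and the full TGACGTCA is in none of the 3 windows. Of all promoters in windows of that length 32.4% hold the GC box, 34.3% CCAAT, 13.1% TATAAA, 19% TGACG and 1.7% TGACGTCA. A match describes these letters and does not show that a factor binds there.

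Other genes of sodium, proton and bicarbonate transport were read as a list, which also holds sodium-calcium exchangers, scaffolds, membrane anchors and pump partners. The list has 45 genes, of which 34 were tested. Of these 5 rose, 2 fell and 27 did not pass, with a median change of −0.01, against 16.2% called and a median of 0.07 over all genes. With slide as a block 2 of them passed, Slc9a3 and Slc12a2. The sign of Ank3, a membrane anchor named after its values were seen, depended on slide. Its change was 0.90 within slide 1 but −0.19 ± 0.46 (SE) over all arrays, where its 2 probes gave −1.01 and −0.19. Atp1a4, a catalytic subunit of sperm, was well above background on 1 of the 3 treated arrays, at a change of 0.42 ± 0.29 (limma adjusted p = 0.324).

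Among the other FXYD genes, small membrane proteins of the phospholemman family, 2 of 5 tested rose. Fxyd7, known from brain, was at 1.38, 1.86 and 1.73 with isoproterenol and at 0.77, 0.36 and 0.20 in controls. It rose by 1.21 ± 0.23 (limma adjusted p = 0.0172), and within slide 1 its change was 0.93 (adjusted p = 0.11). Fxyd5, which also affects cell adhesion, was at 3.64, 4.01 and 3.98 with isoproterenol and at 3.35, 2.81 and 2.81 in controls. It rose by 0.89 ± 0.22 (limma adjusted p = 0.04), and its 3 probes gave changes from 0.89 to 1.21, but within slide 1 the change was 0.65 (adjusted p = 0.207). Neither FXYD gene passed with slide as a block (adjusted p = 0.0865 for Fxyd7 and 0.19 for Fxyd5). Fxyd3 had the lowest change of the list, −1.88 ± 0.52, but did not pass (limma adjusted p = 0.0529), was well above background on 1 treated array and was at −0.09 under normexp, and Fxyd2 and Fxyd6 did not pass either.

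Of 8 genes of sodium-proton exchange and its partners 1 rose and 1 fell. Slc9a3, the exchanger of kidney and gut epithelium, was dim, at −4.62, −4.25 and −4.16 with isoproterenol and at −2.82, −2.86 and −3.14 in controls. It fell by 1.40 ± 0.20 (limma adjusted p = 0.00879) and its change was −1.68 within slide 1 (adjusted p = 0.0325), but it was well above background on 1 treated array and at 0.10 under normexp. Nherf2, a scaffold of exchangers, rose by 1.06 ± 0.20 (limma adjusted p = 0.0187), at a level of 2.20, 2.82 and 2.56 with isoproterenol and 1.49, 1.48 and 1.44 in controls, and was at 0.73 within slide 1 (adjusted p = 0.0578).

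The sodium-calcium exchanger gene Slc8a1, which removes calcium from the heart cell at the cost of the sodium gradient, did not pass at 0.52 ± 0.22 (SE, limma adjusted p = 0.141, 0.34 within slide 1), and its 9 probes gave changes from −1.13 to 0.54. Of 4 genes of sodium-calcium exchange 0 passed in limma, and 0 had an unadjusted p under 0.05. Of 9 bicarbonate and cotransport genes 2 rose. Slc12a2, the sodium-potassium-chloride cotransporter, was at −0.56, −0.81 and −0.41 with isoproterenol and at −1.51, −1.67 and −1.54 in controls, the treated arrays of both slides being alike. It rose by 0.98 ± 0.18 (limma adjusted p = 0.0159), by 1.01 within slide 1 (adjusted p = 0.0445), and passed with slide as a block (adjusted p = 0.0487). The sodium-bicarbonate cotransporter Slc4a7 rose by 0.83 ± 0.17 (limma adjusted p = 0.021, 0.70 within slide 1), although its 3 probes ranged from −0.47 to 0.83. Cav3, the caveolin of muscle membrane, was at 1.97, 1.54 and 1.76 with isoproterenol and at 2.45, 2.46 and 2.64 in controls and fell by 0.76 ± 0.18 (limma adjusted p = 0.036, −0.55 within slide 1). Of 2 proton-potassium pump genes and 2 NKAIN genes, which encode partners of the pump's beta 1 subunit, 0 passed in limma, and 0 had an unadjusted p under 0.05.

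**Figure D4:**
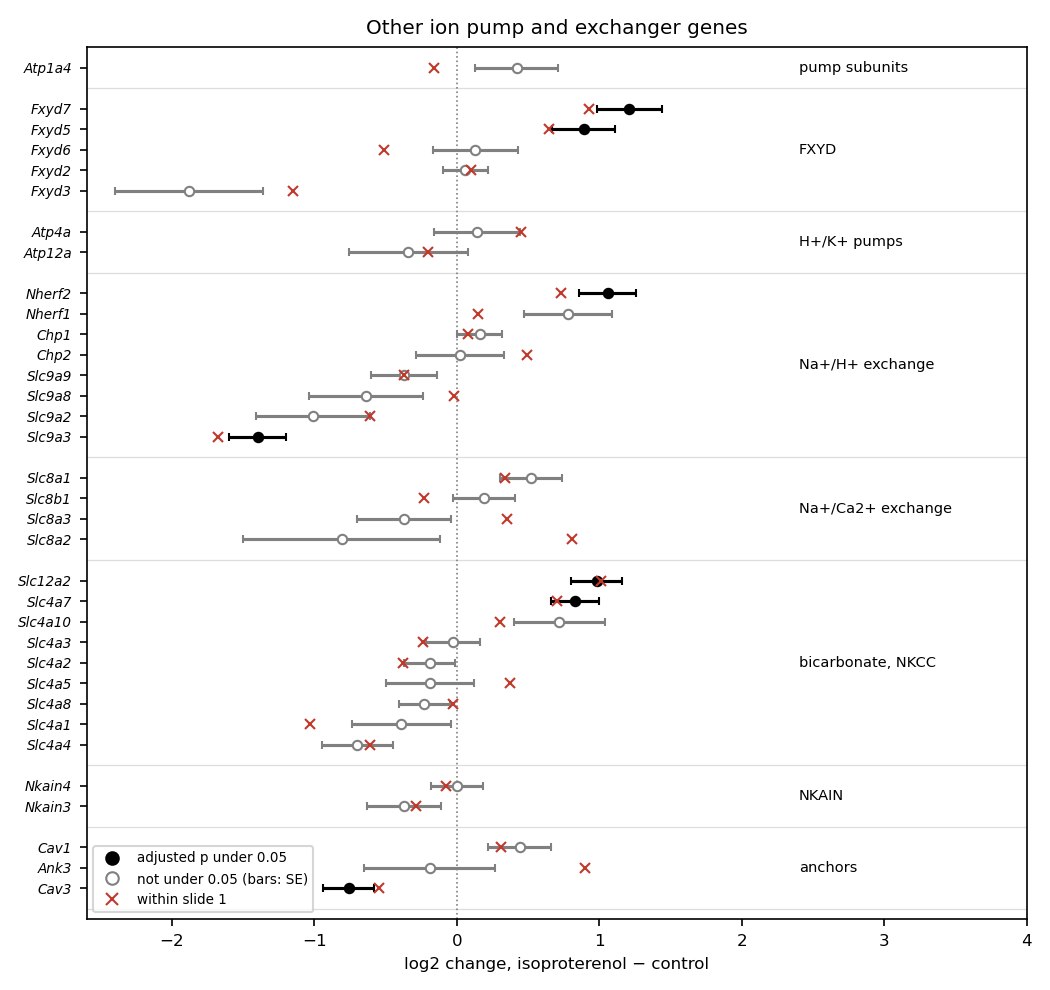
Change of the 34 genes tested of the transport list, on the log2 scale, isoproterenol minus control, grouped by family, with bars of 1 SE. Filled points have an adjusted p under 0.05 (5 higher, 2 lower), and crosses give the change within slide 1; for Slc12a2 the cross lies almost on the point, and for Fxyd7 and Nherf2 it lies closer to 0.

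The genes most like each of the 4 were found by the root-mean-square difference between log2 profiles over the 6 arrays, each centred on its own mean. For Atp1b2 these were Lnx1, a ubiquitin ligase, Lrrc14b and Rnf152, a ubiquitin ligase of the lysosome, at differences of 0.153, 0.161 and 0.168. Lrrc14b was well above background on 4 of the 6 arrays and Rnf152 on 5, which limits what their profiles show. Lnx1 was at −1.71, −1.46 and −1.40 with isoproterenol and at 0.19, 1.56 and 1.34 in controls, with control replicate 1 the lowest control as for Atp1b2. For Atp1b3 they were Tpi1, a glycolytic isomerase, Tpi1l1 and Eif3d, a subunit of a translation initiation factor, at 0.035, 0.045 and 0.053. Tpi1l1 is named as a copy of Tpi1, and whether their probes tell them apart was not tested. Tpi1 was at 3.73, 4.34 and 4.41 with isoproterenol and at 3.22, 3.12 and 3.12 in controls, both slide 2 arrays being above the treated array of slide 1 as for Atp1b3. For Atp1b1 they were Hycc2, Rps6ka4 and Chmp5, at 0.035 to 0.038, and for Fxyd1 Purb, C1h11orf58 and Dld, at 0.032 to 0.050. All 6 arrays entered, so these profiles share the slides and the treatment. A like order of the arrays follows from how the genes were chosen and is no separate result.

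The cell types of the cultures were read from their markers, whose counts stand beside the 10.2% of all genes called higher and 5.94% called lower. All 9 cardiomyocyte markers were well above background on all 6 arrays, with a summed level between 1771 and 2812 with isoproterenol and between 1572 and 1807 in controls. Of these 1 rose and 1 fell, with a median change of 0.34 over the list, and −0.07 within slide 1. Myh6 rose by 1.23 ± 0.23 (SE, limma adjusted p = 0.0181), and was at 0.82 within slide 1. Mb, the oxygen carrier myoglobin, fell by 1.18 ± 0.22 (SE, limma adjusted p = 0.0182), and was at −1.59 within slide 1. Of these calls only the fall of Mb was kept with slide as a block. Pln, another cardiomyocyte marker, did not pass over all arrays, at −0.82 ± 0.23 (SE, limma adjusted p = 0.0536). It was lower and passed with slide as a block and under normexp, where its change was −1.03, and was at −1.24 within slide 1. Of 9 fibroblast markers 1 rose and 4 fell, with a median change of −0.57 over the list, and −0.86 within slide 1. Their sums were 127 to 169 with isoproterenol and 152 to 161 in controls. Col1a2, which did not pass, was the brightest of them, at a mean of 6.38 with isoproterenol and 5.73 in controls, so the sums say little of dimmer markers. Lum, Postn and Col3a1 fell and were well above background on all 6 arrays. Under normexp they were at −1.54, −1.48 and −1.26, and Thy1, which rose, was at 0.87. Of these 5 calls 3 were kept with slide as a block, 2 within slide 1 and 4 under normexp, where the change of Tcf21, a transcription factor of fibroblasts, was −0.20 (limma adjusted p = 0.448). Of 5 markers of smooth muscle and pericytes 2 rose and 0 fell, with sums of 216 to 497 with isoproterenol and 83.3 to 149 in controls. These sums are mostly the 2 risen markers and do not show a rise of the whole list. Myh11, Pdgfrb and Rgs5 did not pass, at changes of −0.27, −0.16 and 0.18, and at 0.64, −0.18 and −0.15 within slide 1. The risen markers were Acta2 and Tagln, an actin and an actin-binding protein of smooth muscle, with changes of 1.91 ± 0.50 and 1.77 ± 0.34 (SE, limma adjusted p = 0.0452 and 0.019). Neither passed with slide as a block (adjusted p = 0.304 for Acta2 and 0.0629 for Tagln) or within slide 1, where their changes were 1.16 and 1.03. Of 7 endothelial markers 0 rose and 1 fell, with sums of 14.3 to 15.8 with isoproterenol and 15.2 to 17.1 in controls. The marker that fell was Kdr, a growth factor receptor, at −1.22 ± 0.17 (SE, limma adjusted p = 0.00799) and −1.27 within slide 1 (adjusted p = 0.0426). It was not well above background on either array of slide 2 and was at −0.05 under normexp. Of 4 macrophage markers 0 rose and 0 fell in limma (0 also at an unadjusted p under 0.05), with sums of 11.5 to 14.6 with isoproterenol and 9.14 to 16.1 in controls. Of 6 neuronal markers 1 rose and 0 fell, with sums of 5.80 to 7.39 with isoproterenol and 4.95 to 5.52 in controls. The marker that rose was Tubb3, at 0.92 ± 0.19 (SE, limma adjusted p = 0.024), and that call was kept with slide as a block and under normexp. Tubb3 was dim, at a mean of −2.41 with isoproterenol, and well above background on 2 of the 3 treated arrays. The sums are mostly Th, which did not pass, at 0.47 ± 0.21 (SE, limma adjusted p = 0.153) and 0.15 within slide 1. They do not show a rise of the whole list, and Elavl3 was at −1.01 and did not pass. The part of these cell types in the changes of Atp1b2 and Atp1b3 was not tested.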

How the data were processed

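Total RNA was labelled with Cy3 per the labels. Agilent Feature Extraction 11.0.1.1 produced, per the file headers, linear intensity values with background subtracted for 43040 spots per array. The authors also deposited an mRNA table on a log2 scale with 20734 rows. On slide 1 100.0% of its values, and on slide 2 92.3%, were within 0.01 of a quantile normalization of the mean log2 signal per probe, and every column had a median of 7.35 to 7.39. The tool behind this table is not stated by the labels or headers.

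Scanner probes carry no gene names. Rows of the table were matched to probes by their values on slide 1 (distance under 0.05 and under 0.25 of the next best), which placed 20639 rows; for the 4 genes described the distance was at most 0.000843 and the next best probe at least 0.0425 away. Of the matched rows 13904 received a gene name by RefSeq accession from a gene table of GRCr8.

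Control and outlier spots were left out, spots of a probe averaged, and the 75th percentile over all probes subtracted from the log2 values of each array. A probe had to be well above background on at least 3 arrays, which removed no matched gene, and a gene was its brightest probe. The fit used limma 3.58.1 in R 4.3.3 with Benjamini-Hochberg adjustment and was tested on simulated data. Normexp used the spots' median signals, because the files hold no mean signal. The number of arrays limits the precision. Arrays that share a scan in the file headers were taken as a slide; positions that recur in both scans mean that these were different slides.

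The genes, the lists of other transport genes and markers and the tests were chosen with earlier results of these data known. A few listed genes are not reported here and are left out of the list counts. Named are the 4 genes, the listed transport genes that passed, Atp1a4, Slc8a1 and the 3 genes with the most similar profile. Fxyd2, Fxyd3, Fxyd6, Ank3 and single markers lie outside this rule and were named after their values were seen. Alternatives covered background correction, scaling, the deposited table, filters, probes, slide, pairing by replicate number and leaving out each array.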

Additional observations from a re-analysis of the deposited data

How the results depend on the processing

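The fall of Atp1b2 kept its direction under all 17 alternatives run and passed in all but the fit within slide 1 (−2.51, limma adjusted p = 0.0564); without single arrays it ranged from −2.69 to −2.12. Atp1b3 kept its direction but did not pass with slide as a block (0.58), within slide 1 (0.58) and with the replicate number as a block (1.03), and without single arrays it ranged from 0.91 to 1.25. Atp1b1 was below 0 under quantile normalization (−0.02), in the authors' deposited table (−0.02), with the percentile taken over fully detected probes (−0.05), with slide as a block (−0.04) and within slide 1 (−0.04), in none of which it passed, and without single arrays it was between 0.13 and 0.31. Fxyd1 was above 0 throughout, between 0.07 and 0.56 for other choices and between 0.39 and 0.71 without single arrays. Of the 4 genes 1 passed with slide as a block, 0 within slide 1 and 1 with the replicate block, and between 1 and 3 without single arrays. Over all mRNA genes 3218 passed, against 1457 with slide as a block, 1043 within slide 1, 1469 with the replicate block and 369 to 10387 without single arrays, the highest without isoproterenol replicate 1. Of the transport list 7 passed, against 2 with slide as a block and 3 within slide 1. All 6 differences within an array kept their direction under the alternatives run. The share of calls that were higher was 63.2%, against 73.8% under normexp and 41.2% with the percentile taken over fully detected probes, with median changes of 0.07, 0.37 and −0.17 over all genes. Same-numbered arrays of the groups did not deviate together (correlations of 0.01, 0.05 and −0.02 for numbers 1, 2 and 3), and the numbers were not taken to pair the cultures. This check cannot show whether the cultures were paired, because isoproterenol replicates 2 and 3 were on slide 2 and all controls on slide 1. The causes of these dependences were not tested. Dim probes on slide 2 limit what can be read of Slc9a3, Fxyd3, Kdr and the glial markers S100b, Sox10 and Gfap.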
